A study of Danio rerio with 6 samples.

Results

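The 7 genes described here carry names known from zebrafish germ plasm and from the germ line it founds. They are *DND1* (ENSDARG00000022813), *gtsf1* (ENSDARG00000000887), *DDX4* (ENSDARG00000014373), *DAZL* (ENSDARG00000036214), *NANOS3* (ENSDARG00000068255), *tdrd7a* (ENSDARG00000032808) and *ca15b* (ENSDARG00000040510), spelled as in the table of symbols used, and they make up 7 of the 32266 genes in the deposited table. The set was chosen by gene name after the values of *DND1* and *gtsf1* in these same libraries had been seen. The values of the 7 genes are therefore given as a description, without a test.

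RNA-Seq was performed on sorted cells of early zebrafish embryos of the AB strain, labelled 9 hours post fertilization, in 3 groups of 2 libraries each. The paper's methods give a slightly earlier stage for the dissociation of the embryos. ‘Mosaic’ cells were GFP+ cells from embryos injected at the one-cell stage with a plasmid that expresses GFP and β-catCA, a constitutively active β-catenin, from a heat shock promoter. ‘Ubiquitous’ cells were GFP+ cells from embryos of a transgenic line carrying the same kind of heat shock construct in all cells, and ‘Uninjected’ cells were sorted from embryos that received no plasmid. Each group came from pooled embryos, and the labels do not say whether the libraries of a group came from separate pools, so p-values measure only the spread between these libraries. ‘Mosaic’ and ‘Uninjected’ cells differ in injection and in the GFP gate as well as in β-catCA, and no injected group without β-catCA was among the libraries, so these differences cannot be told apart. ‘Ubiquitous’ cells came from a transgenic line, so they differ from ‘Uninjected’ cells in line and GFP gate as well. They differ from ‘Mosaic’ cells in line, injection and neighbours, and these differences cannot be told apart either. ‘Mosaic’ cells lay among normal cells, whereas the cells around ‘Ubiquitous’ cells carried the construct too. The paper proposes that changes in ‘Mosaic’ but not in ‘Ubiquitous’ cells come from introducing unfit cells, which was not tested here. It also reports that mosaically introduced β-catCA cells activated caspase-3 and were eliminated. The methods describe a heat shock of the plasmid-injected embryos before collection. Whether the ‘Uninjected’ embryos were heat shocked is not given in the sources used here.

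Germ plasm is a store of maternal RNAs and proteins that is laid down in the egg and gathers at the cleavage furrows of the early embryo. The few cells that inherit it become the primordial germ cells, which migrate through the gastrula toward the chemokine Cxcl12a. Many germ plasm RNAs are also present throughout the egg at first and are then cleared from somatic cells, whereas the germ cells protect them. In a bulk library of sorted cells, fewer germ cells and less RNA per cell cannot be told apart.

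The deposited values are regularized logarithms (rlog), that is, log2 values scaled for library size and drawn toward each gene's mean, more strongly where counts are low. The counts behind them were inferred by inverting the transformation, and the inferred counts gave back the deposited values within 0.001 for all 14132 genes that were not listed at 0 in every library. Inferred totals ranged from 34540 in ‘Ubiquitous’ replicate 2 and 58352 in ‘Uninjected’ replicate 1 to 489311 in ‘Uninjected’ replicate 2, and the other 3 libraries held 217242 to 345593. Values in the shallow libraries therefore rest on few molecules, and the values in parentheses after a share are its 95% exact binomial (Clopper-Pearson) interval. For a count of 0, the share that 3 counts would give is stated as the limit. Both cover counting error only. As a check of the cells, 9 of 12 listed blastoderm genes had a mean rlog of at least 2. The highest were *HSPB1* at 10.45, *tbx16* at 7.29 and *SOX3* at 6.83. *HSPB1* is a heat shock protein gene and plasmid-injected embryos were heat shocked, so its level cannot serve as this check. Below that level lay *nanog* at 1.25, *vent* at 0.95 and *ved*, which had a single count in 1 library.

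Of the 7 genes, *gtsf1* and *DND1* had a mean rlog of at least 2, the level from which genes were compared by a test across the table (3905 genes). *DND1* reached it only narrowly, with a mean of 2.1, and only through the groups in which it was higher, since its mean in ‘Mosaic’ was 1.58. *NANOS3* lay just below, at 1.83, followed by *tdrd7a* at 1.0 and *ca15b* at 0.20. *DDX4* and *DAZL*, with 6 and 2 counts over all libraries, were too low to compare.

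*DND1* encodes an RNA-binding protein that germ cells need for migration and survival and that shields germ cell RNAs from microRNAs. Its rlog value was 1.72 and 1.45 for ‘Mosaic’, 1.88 and 2.35 for ‘Ubiquitous’ and 2.69 and 2.51 for ‘Uninjected’ replicates 1 and 2. In the same order it was counted 2, 0, 6, 2, 5 and 27 times. Both ‘Mosaic’ libraries lay below all others, both ‘Uninjected’ libraries lay above all others, and ‘Ubiquitous’ fell between on this scale.

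As a share of all counts, *DND1* took 0.921 per 100,000 (0.112 to 3.33) in ‘Mosaic’ replicate 1 and none in replicate 2, where a count of 0 allows up to 1.25 per 100,000 (3 counts). The ‘Ubiquitous’ libraries held 1.74 (0.637 to 3.78) and 5.79 (0.701 to 20.9) per 100,000, and the ‘Uninjected’ libraries 8.57 (2.78 to 20.0) and 5.52 (3.64 to 8.03). On shares, ‘Ubiquitous’ replicate 2 thus lay above the lower ‘Uninjected’ library, and its interval, from 2 counts, spans both groups. The mean rlog was 1.58 ± 0.19 in ‘Mosaic’, 2.11 ± 0.33 in ‘Ubiquitous’ and 2.60 ± 0.13 in ‘Uninjected’ (SD, n = 2 each). The difference between ‘Mosaic’ and ‘Uninjected’ was -1.02 (standard error 0.20) and ranged from -1.15 to -0.88 as single libraries were left out. From ‘Uninjected’ to ‘Ubiquitous’ it was -0.49, with -0.25 without ‘Ubiquitous’ replicate 1 and -0.73 without replicate 2. From ‘Ubiquitous’ to ‘Mosaic’ it was -0.53, with -0.76 and -0.29 without these libraries. Without both shallow libraries, the difference between ‘Mosaic’ and ‘Uninjected’ was -0.93. ‘Mosaic’ and ‘Ubiquitous’ are compared here with the same ‘Uninjected’ libraries, so these differences are not independent of each other. With the libraries of a group pooled, its share was 13.4-fold higher in ‘Uninjected’ than in ‘Mosaic’, with a counting interval of 3.41 to 115 that reflects 32 against 2 counts. Intervals of pooled ratios cover counting error only, not the spread between the libraries of a group, and are not a test. Both ‘Mosaic’ counts were in replicate 1, so the ratio was 6.35 (1.62 to 54.7) without ‘Mosaic’ replicate 2 and cannot be computed without replicate 1, and it was 19.6 without ‘Uninjected’ replicate 2.

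**Figure D1:**
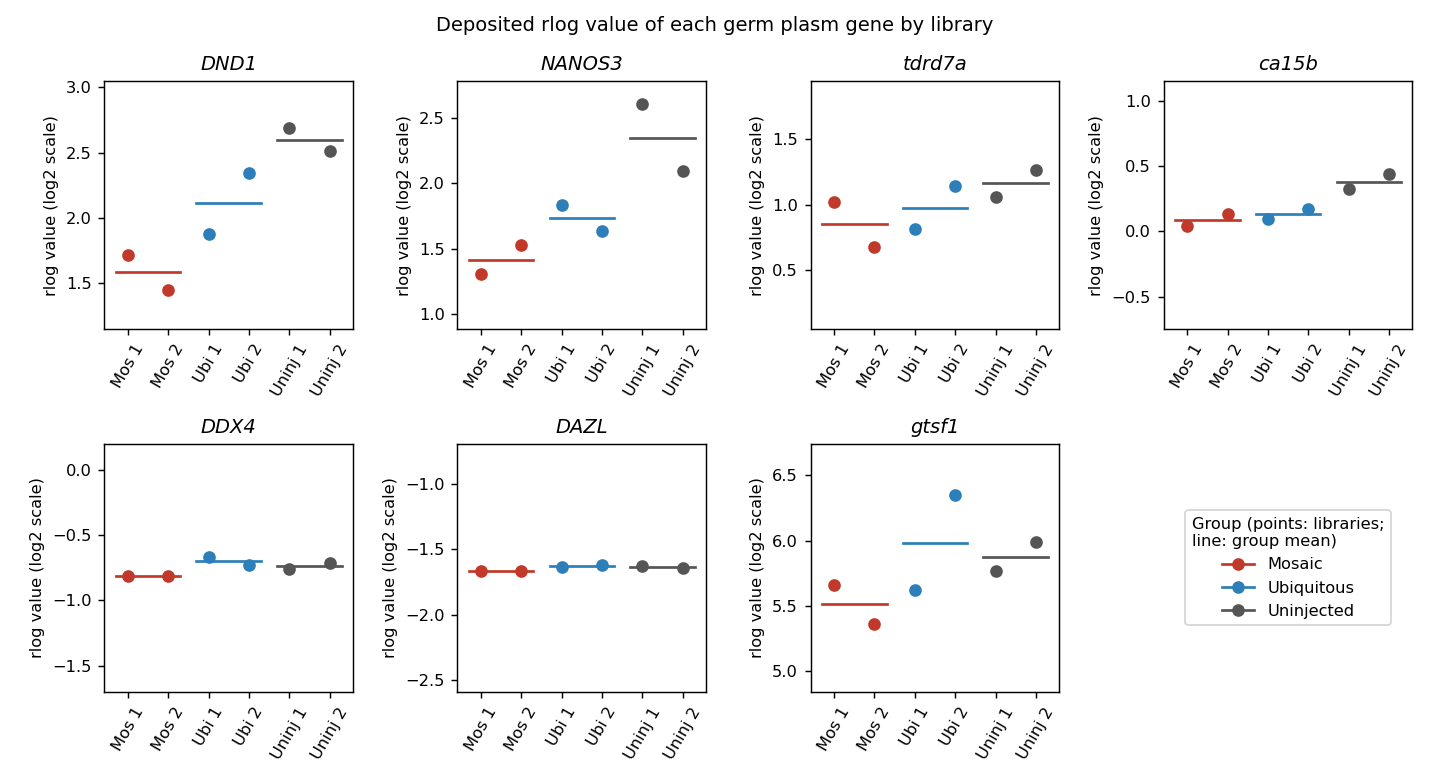
Deposited rlog value (log2 scale, vertical axis) of the 7 germ plasm genes in each of the 6 libraries (horizontal axis), with points for libraries and lines for group means; every panel spans the same height. *DND1* and *NANOS3* lie lowest in both ‘Mosaic’ libraries and highest in both ‘Uninjected’ libraries, *gtsf1* is highest in ‘Ubiquitous’ replicate 2 at 6.35, and *DDX4* and *DAZL* are nearly flat at negative values.

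*NANOS3*, which encodes a translational repressor that keeps primordial germ cells alive, gave 1.3 and 1.52 for ‘Mosaic’, 1.84 and 1.63 for ‘Ubiquitous’ and 2.61 and 2.09 for ‘Uninjected’ on the rlog scale. The counts in the same order were 0, 2, 8, 0, 6 and 19. The order of the group means on the rlog scale was that of *DND1*. The value of 1.63 in ‘Ubiquitous’ replicate 2 rests on no count, however, and low counts are drawn toward the gene's mean. In shares, ‘Ubiquitous’ and ‘Mosaic’ overlapped, and the count of 0 in ‘Ubiquitous’ replicate 2 allows up to 8.69 per 100,000. Per 100,000 counts, *NANOS3* took 0 and 0.833 for ‘Mosaic’, 2.31 and 0 for ‘Ubiquitous’ and 10.3 (3.77 to 22.4) and 3.88 (2.34 to 6.06) for ‘Uninjected’. The rlog difference between ‘Mosaic’ and ‘Uninjected’ was -0.94 (standard error 0.20), between -1.19 and -0.68 with a library left out and -0.68 without both shallow libraries, and the pooled share was 10.4-fold higher in ‘Uninjected’ (2.60 to 91.0; 25 against 2 counts). Both ‘Mosaic’ counts were in replicate 2, so the ratio was 5.48 (1.37 to 47.8) without ‘Mosaic’ replicate 1, and it was 23.5 without ‘Uninjected’ replicate 2. ‘Ubiquitous’ differed from ‘Uninjected’ by -0.61 on the rlog scale, by -0.36 without ‘Uninjected’ replicate 1 and by -0.26 without both shallow libraries. Its pooled share was 2.17-fold lower, with an interval of 0.948 to 5.56 that includes no difference.

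The Tudor domain protein of *tdrd7a* shapes the granules in which germ plasm RNA is held. It was counted 3 and 0 times in ‘Mosaic’, 2 and 1 times in ‘Ubiquitous’, and 1 and 13 times in ‘Uninjected’, where its share was 1.71 and 2.66 per 100,000 against 1.38 and 0 in ‘Mosaic’. Its pooled share was 3.90-fold higher in ‘Uninjected’ than in ‘Mosaic’ (1.09 to 21.2; 14 against 3 counts), and 1.85-fold (0.517 to 10.1) without ‘Mosaic’ replicate 2, an interval that includes no difference. On the rlog scale the difference was -0.31 (standard error 0.17), with 0.85 ± 0.25 in ‘Mosaic’, 0.98 ± 0.23 in ‘Ubiquitous’ and 1.16 ± 0.14 in ‘Uninjected’ (SD, n = 2 each). A second gene of the family, *TDRD7* (ENSDARG00000077523), was listed at 0 in all 6 libraries.

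*ca15b*, a carbonic anhydrase gene whose RNA is found in zebrafish germ cells, was counted once or not at all in 5 of the libraries and 10 times in the deepest, ‘Uninjected’ replicate 2. Its counts were 0 and 1 for ‘Mosaic’, 1 and 0 for ‘Ubiquitous’ and 1 and 10 for ‘Uninjected’. The single count in the shallow ‘Uninjected’ replicate 1 gave 1.71 per 100,000 (0.0434 to 9.55), close to the 2.04 (0.98 to 3.76) of replicate 2. The pooled share was 9.19-fold higher in ‘Uninjected’ than in ‘Mosaic’, with an interval of 1.34 to 396, and 7.64-fold higher than in ‘Ubiquitous’, with an interval of 1.11 to 329. Each of these ratios rests on 11 counts against 1, and the first was 4.83 (0.701 to 208) without ‘Mosaic’ replicate 1.

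*DDX4*, the zebrafish vasa gene and the classical germ plasm RNA helicase, was counted 3 times in ‘Ubiquitous’ replicate 1 and 3 times in ‘Uninjected’ replicate 2, the deepest libraries, and never elsewhere. *DAZL*, which encodes an RNA-binding protein that promotes translation in germ cells, was counted once in each of these same libraries. Both genes had no count in the ‘Mosaic’ libraries, where 0 counts allow up to 1.38 and 1.25 per 100,000, above the 0.868 and 0.613 measured for *DDX4* in the libraries that held it. A difference in *DDX4* or *DAZL* was therefore not detectable at this depth. Their rlog values, -0.82 to -0.67 for *DDX4* and -1.66 to -1.62 for *DAZL*, follow the depth of the libraries where no molecule was counted.

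**Figure D2:**
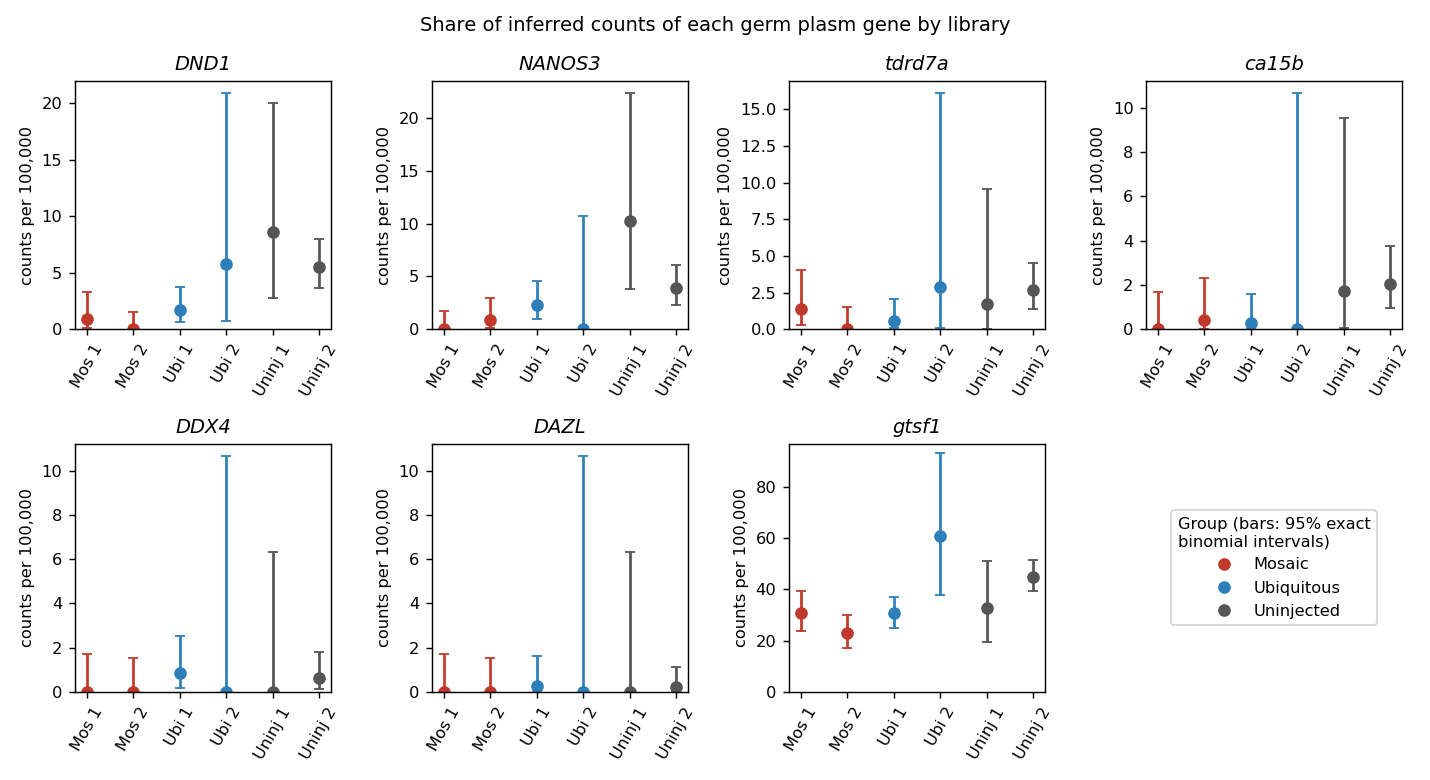
Share of inferred counts per 100,000 (vertical axis, starting at 0, with a scale for each gene) of the 7 germ plasm genes in each library (horizontal axis), with 95% exact binomial intervals as bars. The intervals of the shallow libraries, ‘Ubiquitous’ replicate 2 and ‘Uninjected’ replicate 1, are the widest, and the ‘Mosaic’ points of *DND1*, *NANOS3*, *tdrd7a* and *ca15b* lie between 0 and 1.38.

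*gtsf1* stood apart from the other genes in level. Its product, studied mostly in mouse and fly, is a small zinc finger protein that works with Piwi proteins in piRNA-guided silencing of transposons. It gave 5.66 and 5.37 on the rlog scale for ‘Mosaic’, 5.62 and 6.35 for ‘Ubiquitous’ and 5.77 and 5.99 for ‘Uninjected’. The counts were 67, 55, 106, 21, 19 and 220, more than those of the other 6 genes together in every library. Per 100,000 counts it took 30.8 (23.9 to 39.2) and 22.9 (17.3 to 29.8) for ‘Mosaic’, 30.7 (25.1 to 37.1) and 60.8 (37.6 to 92.9) for ‘Ubiquitous’ and 32.6 (19.6 to 50.8) and 45.0 (39.2 to 51.3) for ‘Uninjected’. The ‘Mosaic’ libraries were below both ‘Uninjected’ libraries, whereas the ‘Ubiquitous’ libraries lay on either side of them and overlapped both groups.

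The rlog difference of *gtsf1* between ‘Mosaic’ and ‘Uninjected’ was -0.37 (standard error 0.26; -0.51 to -0.22 with a library left out). Between ‘Ubiquitous’ and ‘Uninjected’ it was 0.11 (standard error 0.26), and it turned to -0.26 without the shallow ‘Ubiquitous’ replicate 2. ‘Mosaic’ and ‘Ubiquitous’ differed by -0.47, and by -0.11 without that library. The pooled share was 1.64-fold higher in ‘Uninjected’ than in ‘Mosaic’ (1.31 to 2.05) and 1.31-fold higher in ‘Uninjected’ than in ‘Ubiquitous’ (1.05 to 1.63), against the direction of the mean rlog. It was 1.25-fold higher in ‘Ubiquitous’ than in ‘Mosaic’, with an interval of 0.969 to 1.62 that includes no difference. The difference in *gtsf1* between ‘Mosaic’ and ‘Uninjected’ was thus smaller than in *DND1* or *NANOS3* on both scales.

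The counts of the 6 genes other than *gtsf1* were also summed, which lessens the counting error of each. They came to 5 and 3 for ‘Mosaic’, 21 and 3 for ‘Ubiquitous’ and 13 and 73 for ‘Uninjected’. The sums were 2.3 (0.747 to 5.37) and 1.25 (0.258 to 3.65) per 100,000 for ‘Mosaic’, 6.08 (3.76 to 9.29) and 8.69 (1.79 to 25.4) for ‘Ubiquitous’ and 22.3 (11.9 to 38.1) and 14.9 (11.7 to 18.8) for ‘Uninjected’. In these values the 3 groups did not overlap, with ‘Mosaic’ lowest and ‘Uninjected’ highest. The interval of ‘Ubiquitous’ replicate 2, from 3 counts, reaches into both other groups, however. Those of ‘Mosaic’ replicate 1 and ‘Ubiquitous’ replicate 1 overlap as well. The genes of the sum, *DND1* among them, were chosen with earlier results of these data known, so this order is a description only. With libraries pooled, the summed share was 8.98-fold higher in ‘Uninjected’ than in ‘Mosaic’ (4.36 to 21.5; 86 against 8 counts), 2.49-fold higher in ‘Uninjected’ than in ‘Ubiquitous’ (1.57 to 4.09; 86 against 24) and 3.61-fold higher in ‘Ubiquitous’ than in ‘Mosaic’ (1.57 to 9.30). Without *DND1* the first of these ratios was 7.52 (3.24 to 21.4), which is likewise a description and not an independent check. The pooled values lean on the deep library of ‘Ubiquitous’ and of ‘Uninjected’. Leaving out a library at a time gave 6.82 to 12.7 for ‘Uninjected’ over ‘Mosaic’. With *gtsf1* in the sum, the ratio of ‘Uninjected’ to ‘Mosaic’ was 2.09 (1.70 to 2.58).

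In shares of counts, both ‘Mosaic’ libraries were below both ‘Uninjected’ libraries for 5 of the 7 genes (*DND1*, *gtsf1*, *NANOS3*, *tdrd7a* and *ca15b*), where 11.5% of the 14132 genes not listed at 0 were. For ‘Ubiquitous’ below ‘Uninjected’ this held for *NANOS3* and *ca15b*, 2 of 7, against 11.6% of all genes, and for ‘Mosaic’ below ‘Ubiquitous’ only for *DND1*, 1 of 7, against 8.54%. None of the 7 was higher without overlap in the first-named group of any comparison, where 14.5% of all genes were higher in ‘Mosaic’ and 6.23% in ‘Ubiquitous’ than in ‘Uninjected’, and 17.9% higher in ‘Mosaic’ than in ‘Ubiquitous’. Nothing is read from these counts, because the genes were chosen with their values known.

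**Figure D3:**
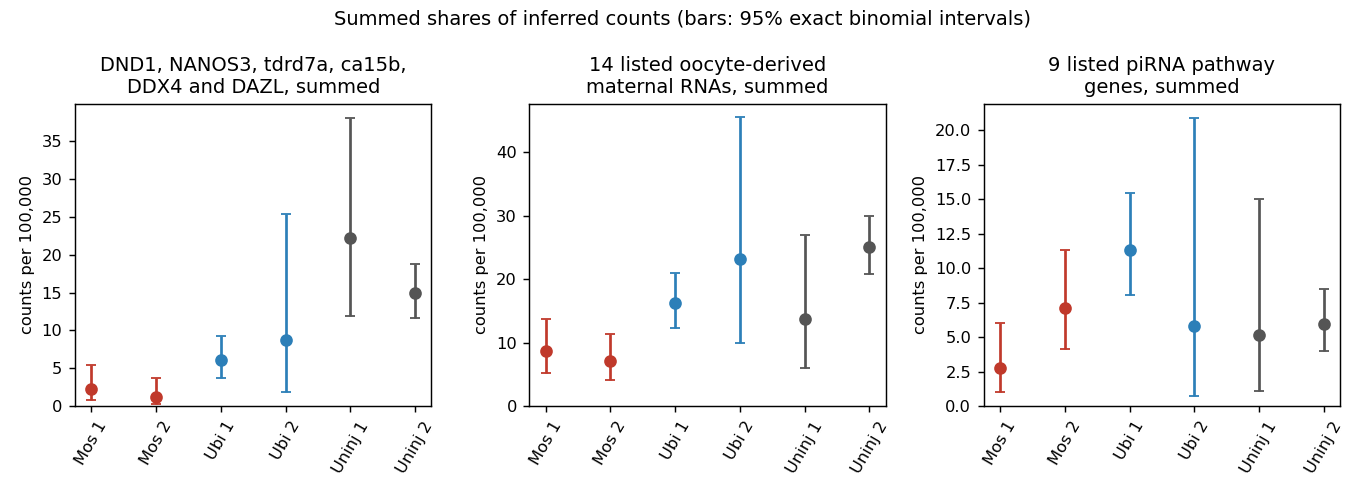
Summed share of inferred counts per 100,000 (vertical axis, starting at 0) in each library (horizontal axis), with 95% exact binomial intervals, for the 6 germ plasm genes other than *gtsf1*, for 14 oocyte-derived maternal RNAs and for 9 piRNA pathway genes. The germ plasm sum is 1.25 and 2.3 in ‘Mosaic’ and 14.9 and 22.3 in ‘Uninjected’. The maternal sum is lowest in ‘Mosaic’. Both ‘Mosaic’ intervals overlap those of the shallow libraries but not that of ‘Uninjected’ replicate 2, and only that of ‘Mosaic’ replicate 1 overlaps ‘Ubiquitous’ replicate 1. The piRNA pathway sum has overlapping groups.

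The genes whose rlog values followed *DND1* most closely over the 6 libraries were *LDHB* (Pearson's r = 0.983), a lactate dehydrogenase subunit, *ING2* (0.975), a chromatin reader, and *STOX1* (0.970). For *gtsf1* they were the ventralizing homeobox gene *vox* (0.974), *eif3ea* (0.970), which encodes a translation initiation factor subunit, and *UTP25* (0.967), which encodes a nucleolar protein. None of these 6 genes is a germ line gene by name. *DND1* and *gtsf1* had r = 0.687 with each other. These correlations describe 6 libraries that share library depth and group as sources of variation, and many of the 3905 genes reach high values over so few points.

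To set the 7 genes beside others of the germ line and its guidance, 3 lists were drawn up that exclude them. They hold germ plasm and germ cell RNAs (17 genes), the piRNA pathway (15) and germ cell guidance (5). Of these, 10, 12 and 2 were found in the table, and 4, 1 and 2 had a mean rlog of at least 2. The 2 tested guidance genes, *CXCL12* and *cxcl12b*, are expressed by somatic tissue, so not all tested genes of the lists are germ line genes. Of the tested germ plasm list, *YBX1*, *CELF1* and *IGF2BP3* took 12.07 per 100,000 or more in every library, where *DDX4* reached 0.868. Whether their counts come from germ cells was not tested. Most genes of the germ plasm and piRNA lists that were found thus lay below the level at which they could be tested. Of the piRNA pathway, *TDRD1*, *ASZ1* and *FKBP6* were listed at 0, and the Piwi genes *PIWIL1* and *PIWIL2*, named after their values were seen, reached at most 2 and 4 counts in any library.

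Between ‘Mosaic’ and ‘Uninjected’ cells, 1 of the 7 listed genes that could be tested was lower, 0 were higher and 6 did not pass limma's test (Benjamini-Hochberg adjusted p under 0.1), where 54 of 3905 genes (1.38%) passed, 33 lower (0.845%) and 21 higher (0.538%) in ‘Mosaic’. At an unadjusted p under 0.05 there were 3 of the 7 listed genes and 440 of all 3905, in either direction. Of the 3, *ELAVL2* and *IGF2BP3* were lower and *YBX1* was higher in ‘Mosaic’. The gene that passed was *ELAVL2*, which encodes an RNA-binding protein present in germ plasm and later in neurons. It gave 2.28 and 2.86 for ‘Mosaic’, 3.50 and 3.39 for ‘Ubiquitous’ and 3.69 and 3.47 for ‘Uninjected’ on the rlog scale, from 1, 8, 30, 3, 7 and 43 counts. The difference from ‘Uninjected’ was -1.01 (standard error 0.24, limma's adjusted p = 0.0499), with an adjusted p between 0.024 and 0.521 over the alternatives. The call was lost without ‘Mosaic’ replicate 1 (adjusted p = 0.521, limma) and without ‘Uninjected’ replicate 1 (adjusted p = 0.236, limma), as well as with no filter on low values (0.45, limma) and with voom on the inferred counts (0.112), which passed 1 other of the 7 genes, higher in ‘Mosaic’. Against ‘Ubiquitous’ the difference of *ELAVL2* was -0.87 (limma's adjusted p = 0.122), which did not pass.

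Of the 7 tested genes of the germ line lists, 6 had a difference below 0 between ‘Mosaic’ and ‘Uninjected’, as did 1823 of all 3905 genes. The somatic chemokine genes *CXCL12* and *cxcl12b* are among these 6. *IGF2BP3*, an RNA-stabilizing protein of the egg, differed by -0.68 between ‘Mosaic’ and ‘Uninjected’ (limma's adjusted p = 0.229) and *YBX1*, a maternal repressor of translation, by 0.75 (limma's adjusted p = 0.21). *CELF1*, an RNA-binding protein found in germ plasm, differed by -0.01, and the piRNA pathway helicase *TDRD9* by -0.39. *TDRD9* reached the level for testing only through the other groups, since its mean rlog in ‘Mosaic’ was 1.83. It is among the 6 genes below 0 and in the median given below. *IGF2BP3*, *YBX1*, *CELF1* and *TDRD9* did not pass limma's test over all 6 libraries. *YBX1* gave 271 and 290 of its list's 384 and 430 counts in the ‘Mosaic’ libraries, and the list's sum ran the other way from *DND1*, at 177 and 179 per 100,000 in ‘Mosaic’ against 151 and 144.5 in ‘Uninjected’. The median difference of the 7 tested genes was -0.36 between ‘Mosaic’ and ‘Uninjected’, beside 0.02 for all 3905 genes.

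In the comparison of ‘Ubiquitous’ with ‘Uninjected’, 0 of the 7 listed genes passed limma's test and 0 had an unadjusted p under 0.05, where 264 of all 3905 genes did. None passed with voom on the inferred counts. Among all 3905 genes, 19 (0.487%) passed, 13 lower (0.333%) and 6 higher (0.154%) in ‘Ubiquitous’. The median difference of the listed genes was 0.03, beside -0.03 for all genes. Between ‘Mosaic’ and ‘Ubiquitous’, 0 of 7 passed with limma or with voom, and 6 had an unadjusted p under 0.05, where 506 of all 3905 genes did. *TDRD9*, which reached the level for testing only through ‘Ubiquitous’ and ‘Uninjected’, is among the 6, as are the somatic chemokine genes *CXCL12* and *cxcl12b*. *YBX1*, also among the 6, was higher in ‘Mosaic’, by 0.49. By the adjusted p, 52 of 3905 genes (1.33%) passed, 32 lower (0.82%) and 20 higher (0.512%) in ‘Mosaic’. The median difference was -0.54, beside 0.05 for all genes.

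The chemokine genes that guide germ cells are expressed by somatic tissue. *CXCL12*, listed as cxcl12a, gave 3.99 and 4.97 for ‘Mosaic’, 5.06 and 5.39 for ‘Ubiquitous’ and 4.98 and 4.43 for ‘Uninjected’ on the rlog scale. Its difference was -0.22 between ‘Mosaic’ and ‘Uninjected’ and -0.74 between ‘Mosaic’ and ‘Ubiquitous’ (limma's adjusted p = 0.282), and *cxcl12b* differed by -0.36 and -0.54, none of which passed. ‘Mosaic’ replicate 1 was lower than all other libraries for both genes, and the ‘Mosaic’ libraries differed from each other by more than their mean differed from ‘Uninjected’.

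**Figure D4:**
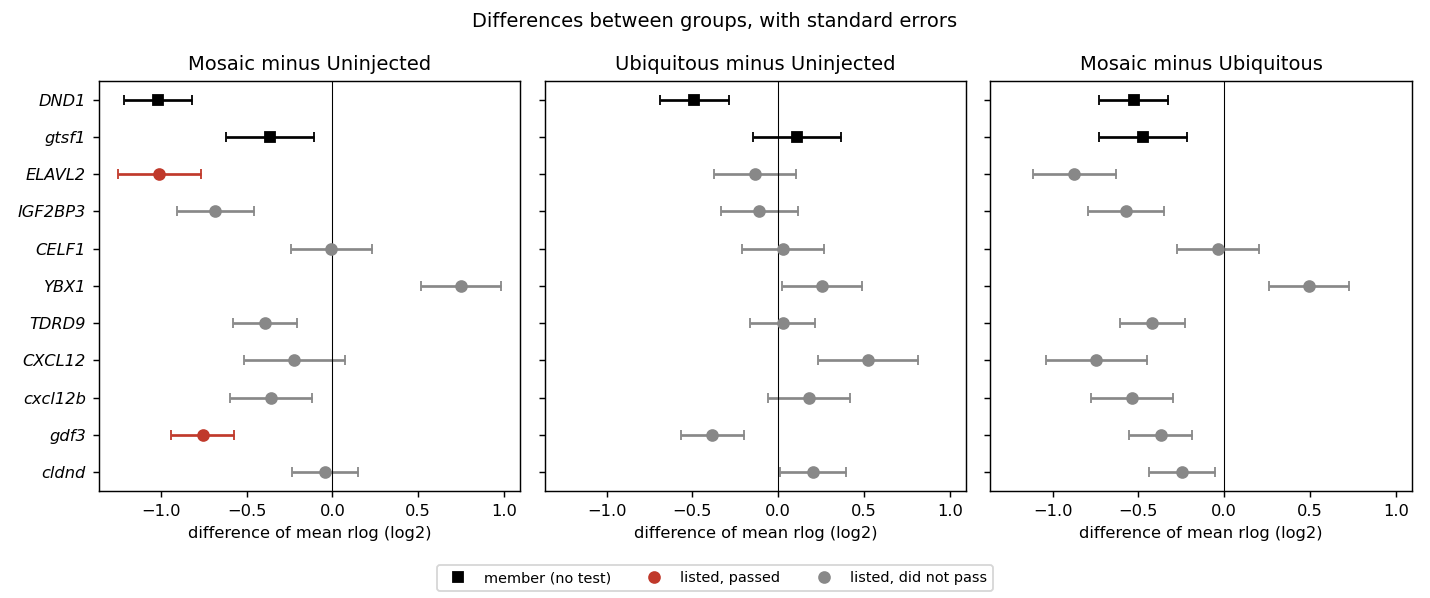
Difference of mean rlog (log2, horizontal axis) for *DND1* and *gtsf1* and for the tested genes of the germ line lists and of the oocyte-derived list (vertical axis), in the 3 comparisons, with bars of 1 standard error from the fit over all 6 libraries. Squares are untested, and red points passed limma's test at an adjusted p under 0.1. *DND1* at -1.02, *ELAVL2* at -1.01 and *gdf3* at -0.76 are the lowest of the 11 genes between ‘Mosaic’ and ‘Uninjected’.

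RNAs made in the oocyte and not particular to germ plasm were listed as well. Of 20 such genes listed, 19 were found, 5 of these were listed at 0, including *MOS* and *BTG4*, and 2 were tested. *gdf3*, a maternal ligand of the Nodal pathway, fell by 0.76 in ‘Mosaic’ against ‘Uninjected’ (standard error 0.18, limma's adjusted p = 0.0586), with 3 and 2 counts for ‘Mosaic’, 11 and 1 for ‘Ubiquitous’ and 4 and 30 for ‘Uninjected’. That call was lost when either ‘Mosaic’ library or either ‘Uninjected’ library was left out (adjusted p = 0.166 to 0.464, limma), and over all alternatives the adjusted p lay between 0.044 and 0.464. Like *DND1*, *gdf3* reached the level for testing only through the other groups, since its mean rlog in ‘Mosaic’ was 1.92. The other tested gene, *cldnd*, differed by -0.04 and reached that level only through ‘Ubiquitous’, at a mean rlog of 2.16. Summed over the 14 detected genes, the maternal RNAs took 8.75 and 7.08 counts per 100,000 for ‘Mosaic’, 16.2 and 23.2 for ‘Ubiquitous’ and 13.7 and 25.1 for ‘Uninjected’. On these values ‘Mosaic’ was below both other groups, which overlapped each other. ‘Uninjected’ replicate 1, the highest library for the germ plasm sum, was below both ‘Ubiquitous’ libraries here. It rests on 8 counts, however. Its interval of 5.92 to 27.0 includes the values of both ‘Mosaic’ and both ‘Ubiquitous’ libraries, so its place in this order is not settled. With libraries pooled, the maternal share was 7.87 per 100,000 (5.51 to 10.9) in ‘Mosaic’. It was 16.8 (13.0 to 21.5) in ‘Ubiquitous’ and 23.9 (20.0 to 28.4) in ‘Uninjected’. That is the order of the pooled germ plasm sum, and these intervals cover counting error only. The part of maternal RNA level in the values of the 7 germ plasm genes was not tested.

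Marker lists of extraembryonic cells did not follow the order of the germ plasm genes. Of 12 enveloping layer genes, 1 (*cldnf*) was listed at 0, and the sum of the rest was 264 and 189 per 100,000 for ‘Mosaic’, 143 and 98.4 for ‘Ubiquitous’ and 163 and 341 for ‘Uninjected’, lowest in ‘Ubiquitous’. Of 8 yolk syncytial layer genes, *TTR* was listed at 0 and the sum, nearly all of it *apoeb*, ranged from 185 to 259 per 100,000 with overlap of all groups. Between ‘Mosaic’ and ‘Ubiquitous’, the enveloping layer keratin *krt8* was higher by 1.18 (limma's adjusted p = 0.0416). The other 3 of the 4 tested enveloping layer genes did not pass. Of these, *krt4* differed by 0.50 and *krt18a.1*, the only one below 0, by -0.34. Of the 9 tested blastoderm genes, the mesoderm gene *tbxta* was lower in ‘Mosaic’ than in ‘Uninjected’ by -1.38 (limma's adjusted p = 0.0205), and *tbxta* and *tbx16* were lower in ‘Mosaic’ than in ‘Ubiquitous’. The calls of *krt8*, *tbxta* and *tbx16* between ‘Mosaic’ and ‘Ubiquitous’ were lost without either ‘Mosaic’ library or without ‘Ubiquitous’ replicate 2. Such fits leave 1 library in a group. In them *tbxta* differed by -1.54 to -1.45, *tbx16* by -1.15 to -1.10 and *krt8* by 0.99 to 1.37. The call of *tbxta* against ‘Uninjected’ was lost without either ‘Mosaic’ library (differences of -1.33 and -1.425) or ‘Uninjected’ replicate 1 (-0.81). The part of these differences in cell makeup in the germ plasm values was not tested.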

How the data were processed

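Gene expression was measured by CEL-Seq2, which tags each transcript with a molecular identifier, in 6 libraries of sorted cells. Per the methods and the submitters' processing notes, the authors aligned reads to GRCz10 with Bowtie2 (2.3.1), counted them per gene with HTSeq (0.6.1) after discarding duplicate identifiers, and called differential genes with DESeq2. The authors deposited a table of rlog values on the log2 scale for 32266 genes, and 18134 of them are listed at 0 in every library. Columns not used numbered 0.

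Counts were inferred in Python (3.11.15; numpy 2.4.6, scipy 1.17.1) by inverting the transformation, with fitted means held at 0.5 or above, and are not the authors' own counts. Group means of the rlog values were compared with limma (3.58.1, R 4.3.3) with a variance trend, over all 6 libraries. Genes needed a mean rlog of at least 2 (3905 genes), and the Benjamini-Hochberg adjusted p-value had to be under 0.1. Both procedures were tested on simulated data. Ratios of pooled shares carry exact conditional binomial intervals at 95%, which leave out the spread between libraries.

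Gene symbols, known for 26433 genes, came from a table of Ensembl identifiers, and the lists were joined to it on the symbol, else on a synonym (GRCz12tu annotation), else on the symbol less its paralog letter. The 7 genes and the lists were chosen with earlier results of these data known. Named are the 7 genes, the listed genes that passed a test, the 3 highest genes of each list among those tested where a result turns on them, and the 3 genes most correlated with *DND1* and with *gtsf1*. Alternatives were the filter, quantile normalization, median centring, the variance prior, the libraries fitted, a replicate block, an adjusted p under 0.05, voom on inferred counts and each library left out. The fit of the 4 deepest libraries, the changes to the summed share and the pooled ratios of single genes without a library were chosen after seeing the data.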

Additional observations from a re-analysis of the deposited data

How the results depend on the processing

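The filter on low values and the choice of libraries moved the counts of genes that passed by more than 1.5 times. Between ‘Mosaic’ and ‘Uninjected’, 54 genes passed, against 6 with no filter, 18 with a mean rlog of at least 4 and 142 in the 4 deepest libraries, and 25 to 64 with a library left out, with 28 without ‘Mosaic’ replicate 1 and 25 without ‘Mosaic’ replicate 2. Between ‘Ubiquitous’ and ‘Uninjected’, 19 became 7 with no filter, 5 with a mean rlog of at least 4 and 54 in the 4 deepest libraries. Between ‘Mosaic’ and ‘Ubiquitous’, 52 became 0 with no filter, 24 with a mean rlog of at least 4, 33 at an adjusted p under 0.05, 159 in the 4 deepest libraries and 2 to 67 with a library left out, with 2 without either ‘Mosaic’ library and 10 without ‘Ubiquitous’ replicate 2. Of the 7 tested genes of the germ line lists, 1 passed between ‘Mosaic’ and ‘Uninjected’. This became 0 with no filter, 0 with a mean rlog of at least 4, 0 to 1 with a library left out and 2 in the 4 deepest libraries (1 lower, 1 higher). Between ‘Mosaic’ and ‘Ubiquitous’, 0 became 1 with quantile normalization, median centring, a robust prior, only the 4 libraries compared or the 4 deepest libraries, and 0 to 1 with a library left out. The ratios of summed shares with *gtsf1* included were 2.09 (‘Uninjected’ over ‘Mosaic’), 1.49 (‘Uninjected’ over ‘Ubiquitous’) and 1.4 (‘Ubiquitous’ over ‘Mosaic’). The cause of these shifts was not tested.

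With the lot number as a replicate block, 57, 23 and 50 genes passed in the 3 comparisons. Libraries of the same lot did not deviate together (r = -0.12, -0.04 and -0.06), and the labels do not say what a lot shares, so the number was not used as a pairing.

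The sign of *gtsf1* between ‘Ubiquitous’ and ‘Uninjected’ turned from 0.11 to -0.26 without ‘Ubiquitous’ replicate 2, -0.36 in the 4 deepest libraries and -0.14 with voom. The differences of *tdrd7a* and *ca15b* between ‘Mosaic’ and ‘Ubiquitous’, at -0.13 and -0.04, also changed sign, to at most 0.05. With voom, which does not shrink low counts, *DND1* differed by -3.54 and *NANOS3* by -3.17 between ‘Mosaic’ and ‘Uninjected’. In ‘Mosaic’ each gene had a count of 2 and a count of 0, so these sizes depend on the offset that voom adds before the logarithm. With 2 libraries a group and totals down to 34540 counts, *DDX4*, *DAZL* and most listed genes could not be compared.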

Other observations

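The detected piRNA pathway genes, of which *gtsf1* is a partner, gave small sums with overlapping groups. The 9 genes summed to 2.76 and 7.08 counts per 100,000 for ‘Mosaic’, 11.3 and 5.79 for ‘Ubiquitous’ and 5.14 and 5.93 for ‘Uninjected’. With libraries pooled, their share was 5.03 (3.19 to 7.54) in ‘Mosaic’, 10.8 (7.74 to 14.6) in ‘Ubiquitous’ and 5.84 (4.0 to 8.25) in ‘Uninjected’. Without *TDRD9*, the gene of the list that could be tested, the pooled share of the other 8 was 3.72 (2.17 to 5.95) in ‘Mosaic’, 6.31 (4.05 to 9.39) in ‘Ubiquitous’ and 2.01 (1.0 to 3.59) in ‘Uninjected’, from 17, 24 and 11 counts, with 95% exact binomial intervals that cover counting error only. Leaving out *TDRD9* thus turned the order of ‘Mosaic’ and ‘Uninjected’, whose intervals overlap in both sums.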
